A study of Homo sapiens with 20 samples.

Results

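The tubulin genes were taken as the rows of the expression table whose symbol is TUBA, TUBB, TUBD, TUBE or TUBG with a number, a number and a letter, or nothing after it, pseudogenes included. There were 24 of them among 36076 genes, of which 22185 carry a symbol. They comprise 10 alpha-tubulin genes, 10 beta-tubulin genes, 2 gamma-tubulin genes, and 1 gene each for delta- and epsilon-tubulin. Of the 24, 22 are protein-coding by symbol and description. The other members, TUBA3FP and TUBB8P12, carry pseudogene names, although GENCODE v44 mapped to GRCh37 lists TUBB8P12 as protein-coding.

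mRNA-seq was compared in 6 established human lines of lung cancer, which were A549, H1299, H1792, PC9 and the sublines CL1-0 and CL1-5. Decitabine (DAC), a cytosine analogue that traps DNA methyltransferases, was given daily at 100 nM for 72 h and followed by 3 days in drug-free medium, and Mock cells of the same line received no DAC. Open chromatin was mapped by Omni-ATAC-seq in A549, H1299, CL1-5 and PC9. Each line and treatment has 1 library, so cell lines served as the replicates, although CL1-0 and CL1-5 derive from 1 lung adenocarcinoma line. All are established lines in culture, and the treatment is the only difference between the libraries of a line that the labels give.

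Alpha- and beta-tubulin join into the heterodimers that polymerise into microtubules. Gamma-tubulin nucleates them within a ring complex, while delta- and epsilon-tubulin serve centrioles. Cells draw their dimers from a set of closely related isotype genes. TUBA1B, TUBA1C, TUBB and TUBB4B are used in dividing cells, TUBB2A, TUBB2B, TUBB3 and TUBB4A are known from neurons, TUBB1 from platelets, TUBB8 from oocytes, and TUBA3C, TUBA3D and TUBA3E from testis.

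The 3 TUBA3 genes showed the largest differences in RNA after DAC, so the 250 bases before each of their starts are given with those of TUBA1B and TUBA4A, which were transcribed in most lines. The bases are from RefSeq promoters of GRCh38.p14, each found once and without mismatch in GRCh37, the build of the ATAC-seq peaks, and capitals mark CG, the dinucleotide at which cytosines are methylated. They lie at chr13:19755965-19756214 on the minus strand for TUBA3C, chr2:132233442-132233691 on the plus strand for TUBA3D, chr2:130956013-130956262 on the minus strand for TUBA3E, chr12:49525179-49525428 on the minus strand for TUBA1B and chr2:220118641-220118890 on the minus strand for TUBA4A.
TUBA3C: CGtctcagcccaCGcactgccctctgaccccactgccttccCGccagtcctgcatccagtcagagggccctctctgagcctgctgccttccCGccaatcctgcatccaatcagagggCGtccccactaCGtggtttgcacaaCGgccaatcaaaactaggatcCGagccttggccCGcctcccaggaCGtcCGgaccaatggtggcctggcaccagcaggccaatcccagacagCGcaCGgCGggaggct
TUBA3D: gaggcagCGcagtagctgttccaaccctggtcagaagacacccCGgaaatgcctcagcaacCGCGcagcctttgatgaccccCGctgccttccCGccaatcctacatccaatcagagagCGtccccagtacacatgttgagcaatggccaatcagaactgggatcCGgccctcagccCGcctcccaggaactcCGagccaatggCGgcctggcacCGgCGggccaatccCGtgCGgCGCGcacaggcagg
TUBA3E: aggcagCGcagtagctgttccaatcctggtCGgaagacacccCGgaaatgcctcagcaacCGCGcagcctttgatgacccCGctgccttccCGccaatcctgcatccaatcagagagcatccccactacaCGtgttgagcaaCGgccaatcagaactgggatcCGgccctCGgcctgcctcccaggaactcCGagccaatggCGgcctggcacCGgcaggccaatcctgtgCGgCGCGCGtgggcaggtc
TUBA1B: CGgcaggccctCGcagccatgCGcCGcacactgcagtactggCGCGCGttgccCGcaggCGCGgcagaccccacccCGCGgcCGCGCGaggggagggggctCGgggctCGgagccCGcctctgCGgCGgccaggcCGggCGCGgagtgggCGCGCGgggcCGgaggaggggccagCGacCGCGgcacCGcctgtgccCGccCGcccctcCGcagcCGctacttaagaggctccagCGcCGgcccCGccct
TUBA4A: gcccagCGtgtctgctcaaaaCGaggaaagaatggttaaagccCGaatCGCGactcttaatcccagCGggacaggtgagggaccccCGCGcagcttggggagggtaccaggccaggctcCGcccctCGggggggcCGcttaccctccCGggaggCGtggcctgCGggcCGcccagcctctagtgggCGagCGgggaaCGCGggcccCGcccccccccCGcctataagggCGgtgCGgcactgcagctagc

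TUBA3D and TUBA3E matched at 92.9% of the aligned columns of these windows, and TUBA3C matched them at 70.0% and 71.8%. The TUBA3C window holds 14 CG dinucleotides, TUBA3D 17 and TUBA3E 18, against a median of 11 over 35116 RefSeq windows of this length. These numbers lie at the 57.1st, 63.2nd and 65.4th percentile of all windows. The TUBA1B window holds 38, at the 97.3rd percentile, and TUBA4A 23, at the 76.3rd. The letters CCAAT, searched on both strands after the sequences had been read, occur 5 times in TUBA3C, 5 times in TUBA3D and 6 times in TUBA3E, in each case on the strand of the gene. Of all windows, 0.319% hold at least 5 and 0.105% at least 6, and TUBA1B and TUBA4A hold 0. A match of letters is a description and not a binding site.

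Sequencing depth and the origin of the libraries set how the values can be read. The 10 libraries other than H1299 hold 22234485 to 25303899 reads assigned to genes, and those of H1299 hold 59735913 (Mock) and 52634234 (DAC). Among genes with 1 to 20 reads, 85.5% (Mock) and 81.9% (DAC) of the read numbers in the H1299 libraries were even, against 39.2% to 41.5% elsewhere, so that counting intervals for H1299 are too narrow. At that depth, at most 3 reads is a stricter rule for silence, and at least 10 reads an easier one for a rise. H1299 also differed in the levels of some close copies, and whether this lay in expression or in read assignment was not tested. TUBA1A was at 4.76 and 4.71 times the FPKM of TUBA1B in its libraries and at 1.19 to 1.57 times in the others, and TUBB8 was at 21.7 and 41.2 FPKM against 0.489 to 2.0. Of 13891 genes without a symbol, 876 (Mock) and 1011 (DAC) held more than 3 reads in H1299, against 2995 to 4324 in the other libraries. Results over lines are therefore also given without H1299. Among markers of the labelled tissue, 7 of 7 epithelial genes were detected somewhere, but their summed level ran from 1.19 FPKM in CL1-0 Mock to 3590 FPKM in A549 Mock, and the 6 lung lineage genes summed to at most 0.829 FPKM in any library.

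TUBA3D, an alpha-tubulin gene on chromosome 2, was measured in every Mock library at a low level. Its FPKM, a read number scaled to transcript length and library depth, went from 0.234 to 5.54 in A549, from 0.133 to 3.23 in CL1-0, from 0.139 to 14.6 in CL1-5, from 0.542 to 1.16 in PC9, from 0.153 to 47.3 in H1299 and from 0.328 to 0.861 in H1792. All 6 DAC libraries were above all 6 Mock libraries. The share of all genes that do so over 6 lines was not counted, and over the 5 lines other than H1792 it was 0.491% of the genes tested. The reads behind the FPKM values were 8 and 224 in A549, 5 and 153 in CL1-0, 6 and 566 in CL1-5, 18 and 43 in PC9, 14 and 3992 in H1299, and 13 and 33 in H1792. PC9 and H1792, which had the highest Mock values, had the lowest values after DAC.

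TUBA3E, elsewhere on chromosome 2 and on the opposite strand to TUBA3D, followed the same order of lines at the top. It went from 0.0605 to 1.79 FPKM in A549, from 0.110 to 2.47 in CL1-0, from 0.0239 to 13.5 in CL1-5, from 0.250 to 1.46 in PC9, from 0.136 to 48.7 in H1299 and from 0.0523 to 1.00 in H1792. Again no DAC library was as low as any Mock library, with the same limit on the share of all genes as for TUBA3D. The reads were 2 and 70 in A549, 4 and 113 in CL1-0, 1 and 506 in CL1-5, 8 and 52 in PC9, 12 and 3970 in H1299, and 2 and 37 in H1792.

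TUBA3C, on chromosome 13, had 0 reads in Mock cells of A549, CL1-0 and PC9. After DAC it reached 35 reads or 0.892 FPKM in A549, 39 reads or 0.849 FPKM in CL1-0, and 6 reads or 0.167 FPKM in PC9. It went from 1 to 251 reads in CL1-5, or 0.0238 to 6.66 FPKM, from 52 to 3576 reads in H1299, or 0.586 to 43.6 FPKM, and from 2 to 5 reads in H1792, or 0.0520 to 0.134 FPKM. It was higher after DAC in 6 of 6 lines, but the Mock value of H1299 lay above the DAC values of PC9 and H1792, so the groups overlapped. The plot of the TUBA3 genes by library shows these values.

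**Figure D1:**
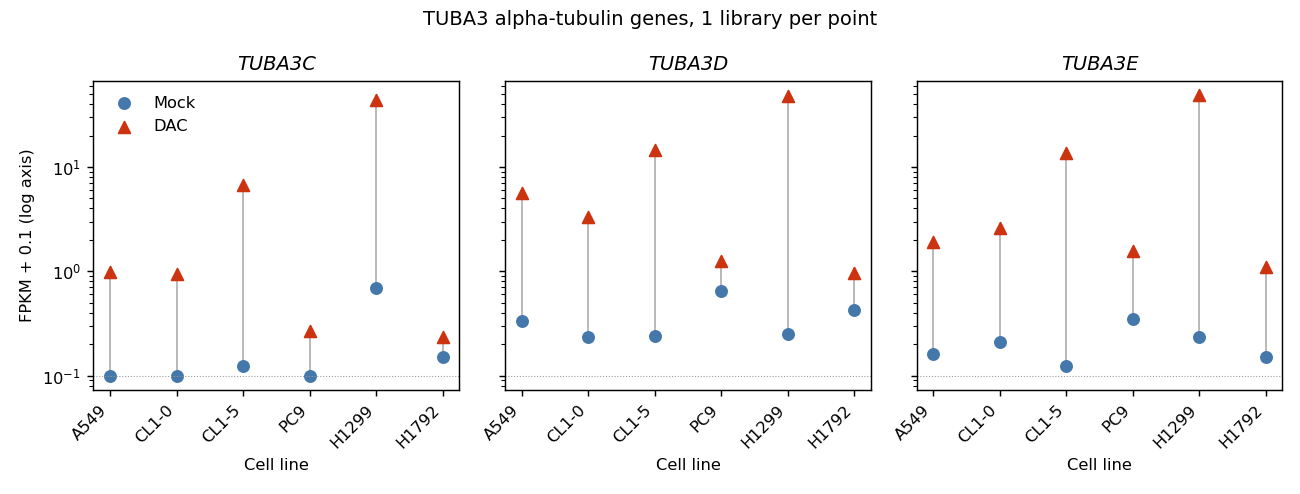
FPKM plus 0.1 on a log axis for TUBA3C, TUBA3D and TUBA3E in each cell line, with Mock as circles and DAC as triangles, 1 library per point and a grey line joining the libraries of a line. The triangle lies above the circle in all 6 lines for each gene, and H1299 and CL1-5 have the highest DAC values.

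Over the 5 lines other than H1792, with the line as a block, the limma fit called 0 of the 22 tubulin genes tested, higher or lower. It called 27 of 22603 genes higher, which is 0.119%, and 0 lower. At an unadjusted p under 0.05 it placed 3 tubulin genes higher, against 8.07% of all genes, and 0 lower, against 4.4%. These were TUBA3C with a log2 fold change of 3.95 (SE 0.66, limma adjusted p = 0.115), TUBA3D with 4.48 (SE 0.83, adjusted p = 0.153) and TUBA3E with 4.76 (SE 0.79, adjusted p = 0.115), on the log2(FPKM + 0.1) scale. By p-value they ranked 85th, 121st and 82nd of all genes. With limma voom on the reads, which weights low values by their depth, all 3 passed the threshold at adjusted p of 0.00165, 0.0357 and 0.0263, where 0.788% of genes were called higher and 0.00442% lower, none of them a tubulin gene. Without H1299 the adjusted p on the FPKM scale lay at 0.248, 0.263 and 0.201. In 0.491% of the genes tested, every DAC library of the 5 lines was above every Mock library, and TUBA3D and TUBA3E were 2 such genes. None of the 22 lay wholly lower, against 0.0664% of genes.

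The reads of the TUBA3 genes cannot be divided among them with certainty. Of the stretches of 50 bases in the annotated transcripts, 51% of those of TUBA3D, 47.4% of those of TUBA3E and 16.9% of those of TUBA3C also occur in another tubulin gene. In H1299 after DAC the 3 genes held nearly equal read numbers, at 0.896 for TUBA3C and 0.995 for TUBA3E per read of TUBA3D, whereas TUBA3C stood at 0.140 to 0.444 per read of TUBA3D in the DAC libraries of the other lines. TUBA3D also overlaps MZT2A on the opposite strand, and although the library kit keeps strand, whether the counting used it is not given in the sources used here. Taken as 1 group, the TUBA3 genes summed to 0.186 to 0.876 FPKM in Mock and to 140 FPKM in H1299, 34.8 in CL1-5, 8.23 in A549, 6.56 in CL1-0, 2.79 in PC9 and 1.99 in H1792 after DAC.

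Of 8 markers of testis germ cells 7 are listed, and 3 entered the limma fit, which called DAZL alone. The 7 summed to 0.0115 to 0.135 FPKM in Mock and to 2.17 to 11.2 FPKM after DAC, higher in 6 of 6 lines. DAZL, a germ cell RNA-binding protein, rose by 5.55 on the log2 scale (SE 0.38, limma adjusted p = 0.00836) and made up most of the sum. DDX4, a germ cell helicase, had an adjusted p of 0.271 and SYCP3, of the synaptonemal complex, one of 0.0837. PRM1, PRM2 and AKAP4 were listed at 0 in both libraries of at least 4 lines, and ODF1, a sperm tail protein, stayed at or under 3 reads in all libraries and was lower after DAC in A549 and CL1-5. The order of the lines differed from that of the TUBA3 genes, since PC9 had the highest germ cell sum after DAC and CL1-0 the lowest. Fibroblast markers, 5 genes, summed to 0.279 to 99.7 FPKM in Mock and 1.74 to 146 after DAC, and 5 leukocyte markers to 0.718 to 4.84 and 1.25 to 8.33, both higher in 6 of 6 lines, with CD3E, which defines T cells, at or under 3 reads in all libraries. The part of these lists in the TUBA3 values was not tested.

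A gene was taken to come up from silence in a line where Mock held at most 3 reads and DAC at least 10. In A549, 5 tubulin genes were silent in Mock, and TUBA3C and TUBA3E came up, 2 of 5 against 7.22% of all silent genes. TUBA3C was at least 9.88-fold higher against the floor of 3 reads, and TUBA3E was 29.7-fold higher with a 95% counting interval of 7.91 to 250. In CL1-0, TUBA3C alone came up among 3 silent genes, at least 10.4-fold, against 3.43% of silent genes.

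CL1-5 had 3 such genes among 5 that were silent, against 2.73% of silent genes. TUBA3C was 280-fold higher with a counting interval of 49.8 to 11108, and TUBA3E 565-fold with an interval of 101 to 22349, both wide because Mock held 1 read. The third, TUBB8P12, a copy of TUBB8 near the end of chromosome 18, went from 2 to 18 reads, 10.0-fold with an interval of 2.40 to 89.3. It held 0 to 8 reads in the libraries of the other lines, and 27.4% of its stretches of 50 bases also occur in TUBB8. The TUBB8P12 value therefore rests on few reads of 1 library.

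In PC9, 0 of 3 silent tubulin genes came up, against 3.88% of silent genes, and in H1299 0 of 2, against 6.99%. H1299 held 12 to 52 Mock reads of each TUBA3 gene, above the floor at its greater depth. Few genes without a symbol held reads in H1299, so its share of silent genes is not comparable with those of the other lines. In H1792, TUBA3E came up, 1 of 4 silent genes against 3.79%, at 19.1-fold with an interval of 4.93 to 164. Over the 6 lines this makes 7 pairs of a gene and a line, 6 of them TUBA3C or TUBA3E. When 0 reads were required in Mock, 2 pairs were left, TUBA3C in A549 and in CL1-0. TUBA8, an alpha-tubulin with a divergent sequence, was silent in all Mock libraries and held at most 4 reads after DAC.

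The difference within each line was next compared over all members, with a 2-fold difference on the log2(FPKM + 0.1) scale used as a description, since a line has 1 library per treatment. In A549 and in CL1-0, TUBA3C, TUBA3D and TUBA3E passed it upward, 3 of 22 members in each, against 15.5% of genes in A549 and 7.6% in CL1-0. In CL1-5 TUBA4A joined them, 4 of 22 against 7.23%. PC9 had TUBA3C, TUBA3E and TUBB6, 3 of 22 against 10.3%, and H1792 had TUBA3D and TUBA3E, 2 of 22 against 11%. H1299 had 8 of 22 against 8.04%, with TUBA3FP, TUBA4B, TUBB2A, TUBB2B and TUBD1 beside the TUBA3 genes. Downward, TUBA1A, TUBA1B and TUBA1C in H1792 were the 3 members past 2-fold, against 6.1% of genes there, and no member was in the other lines, against 6.65% of genes in A549, 5.08% in CL1-5, 3.12% in H1299, 3.1% in PC9 and 2.11% in CL1-0.

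**Figure D2:**
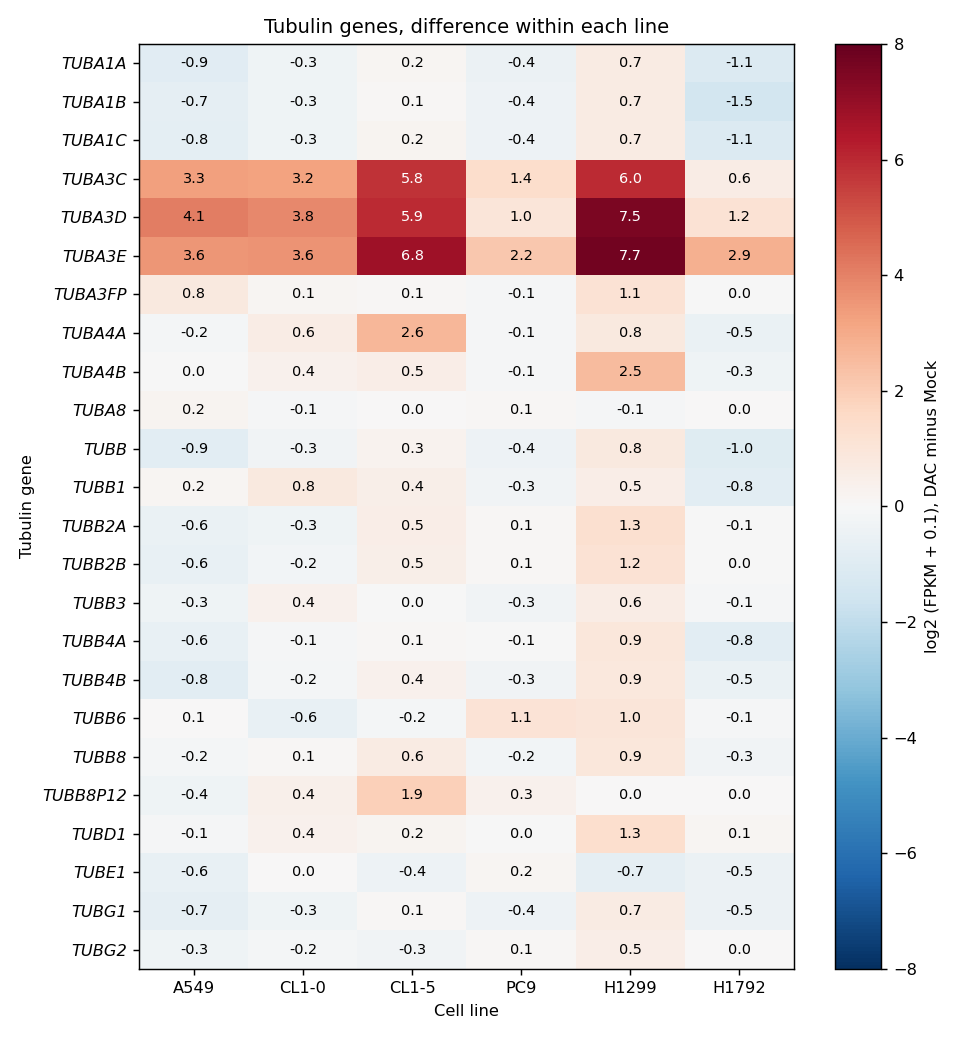
Difference in log2(FPKM + 0.1), DAC minus Mock, for the 24 tubulin genes (rows) in the 6 cell lines (columns), with each value printed in its cell. The TUBA3C, TUBA3D and TUBA3E rows are above 0 in every line, up to 7.69 for TUBA3E in H1299, while most other rows are below 0 in A549 and H1792 and above 0 in H1299.

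TUBA4A, an alpha-tubulin known from platelets, varied widely between lines. It was at 49.4 FPKM in A549 Mock and 43.9 after DAC, 48.0 and 46.0 in PC9, 23.4 and 16.1 in H1792, and 10.4 and 17.7 in H1299. CL1-0 held 0.426 and 0.679 FPKM. CL1-5, with the lowest Mock value of 0.217 FPKM, reached 1.86 FPKM after DAC, 24 and 184 reads, an 8.56-fold difference with a counting interval of 5.57 to 13.7. Over the 5 lines the log2 fold change was 0.74 (SE 0.38, limma adjusted p = 0.456), the largest after the TUBA3 genes, and without CL1-5 it was 0.27. In CL1-5 it held 0.0378% of the alpha-tubulin FPKM in Mock and 0.273% after DAC.

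TUBA4B, which overlaps TUBA4A on the opposite strand, was high and low in the same lines in Mock, with 4.04 FPKM in PC9 and 3.98 in A549 against 0.0252 in CL1-0 and 0.0220 in CL1-5. In H1299 it went from 16 to 126 reads, or from 0.167 to 1.42 FPKM. This was 8.52-fold, with a counting interval of 5.05 to 15.4, and stood apart from the other lines. Reads of the pair cannot be told apart if strand was not used in counting.

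The summed alpha-tubulin and beta-tubulin FPKM differed in the same direction within each line, and that direction differed between lines. The summed alpha-tubulin FPKM, over 9 coding genes, went from 877 to 527 in A549, from 776 to 620 in CL1-0, from 574 to 681 in CL1-5, from 845 to 645 in PC9, from 1145 to 1962 in H1299 and from 427 to 193 in H1792. The summed beta-tubulin FPKM went from 1028 to 606 in A549, from 1091 to 919 in CL1-0, from 1193 to 1504 in CL1-5, from 1025 to 846 in PC9, from 1030 to 2033 in H1299 and from 571 to 358 in H1792. Both sums were lower after DAC in A549, CL1-0, PC9 and H1792, and both were higher in CL1-5 and H1299. Single isotypes could go against the sums. In PC9, TUBB2A went from 42.9 to 46.2 FPKM, TUBB2B from 30.3 to 32.4 and TUBB6 from 18.4 to 38.5, and TUBB6 also went from 35.7 to 37.2 in A549 and from 45.3 to 40.04 in CL1-5.

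The summed FPKM of 12 proliferation genes differed in the direction of the tubulin sums in each line. It went from 991 to 692 in A549, from 763 to 722 in CL1-0, from 692 to 845 in CL1-5, from 673 to 500 in PC9, from 411 to 592 in H1299 and from 470 to 235 in H1792. All 12 genes were higher in CL1-5 and H1299 and all 12 lower in PC9 and H1792, with 11 lower in A549 and 7 lower and 5 higher in CL1-0. The match was not particular to this list. The sums of the prefoldin and CCT chaperonin genes and of proteins that bind or destabilise microtubules had the same directions in each line. Those of the tubulin folding cofactors did in all lines but H1792. The sums of the gamma-tubulin ring complex and the tubulin modifying enzymes were higher in 0 lines. The part of proliferation in the tubulin values was not tested, and fewer cells of a type and less RNA per cell cannot be told apart in bulk samples.

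Within the alpha class the leading isotype by FPKM was the same before and after DAC in all 6 lines, TUBA1A in 5 of them and TUBA1C in PC9. By reads, which are not scaled to length, TUBA1A led in H1299 and TUBA1C in the other lines, again in both treatments. The shares below are of FPKM. TUBA1A held 37.5% and then 32.9% in A549, 40.6% and 40.3% in CL1-0, 36.3% and 34.4% in CL1-5, 32.4% and 31.2% in PC9, 60.8% and 56.2% in H1299, and 33.7% and 34.5% in H1792. TUBA1B held 27.2% and 27.7% in A549, 28.0% and 27.7% in CL1-0, 30.0% and 27.1% in CL1-5, 26.7% and 25.9% in PC9, 12.8% and 11.9% in H1299, and 27.8% and 21.9% in H1792. H1299 thus stood apart in both treatments, as it did in the ratio of these close copies. The TUBA1B loss of 5.88 points in H1792 was the single alpha isotype difference of 5 points or more. Of the stretches of 50 bases, 19.3% of those of TUBA1A, 23.1% of TUBA1B and 16.5% of TUBA1C also occur in another tubulin gene. Reads of these genes therefore cannot be divided among them with certainty.

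The TUBA3 genes together took 0.0313% to 0.101% of the alpha-tubulin FPKM in the Mock libraries. After DAC they took 7.12% in H1299, 5.10% in CL1-5, 1.56% in A549, 1.06% in CL1-0, 1.03% in H1792 and 0.432% in PC9. CL1-5 and H1299 had the largest shares, and TUBA1A, TUBA1B and TUBA1C together kept most of the class in every library. TUBA4A gained 2.69 points in A549, 1.44 in PC9 and 2.87 in H1792, where both its own FPKM and the class sum were lower after DAC. Its share differed by 0.0545 points in CL1-0, 0.235 in CL1-5 and -0.0108 in H1299, which held it at 10.4 FPKM in Mock.

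In the beta class TUBB led by FPKM before and after DAC in 5 lines and TUBB4B led in CL1-5 in both, with 39.5% and 40.1%. By reads TUBB led in CL1-5 too, with 40722 against 26985 for TUBB4B in Mock and 43803 against 30948 after DAC. The TUBB share was lower after DAC in each line. It went from 47.8% to 44.4% in A549, from 50.5% to 50.3% in CL1-0, from 37.5% to 35.7% in CL1-5, from 51.4% to 47.0% in PC9, from 29.9% to 26.4% in H1299 and from 55.4% to 45.5% in H1792. The difference of 9.83 points in H1792 was the largest of any isotype, and that in CL1-0, 0.184 points, was the smallest for TUBB. The largest gains were those of TUBB6 in A549 and PC9, with 2.67 and 2.76 points, of TUBB2A in CL1-5 and H1299, with 1.64 and 3.50 points, and of TUBB4B in CL1-0 and H1792, with 1.2 and 3.10 points.

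**Figure D3:**
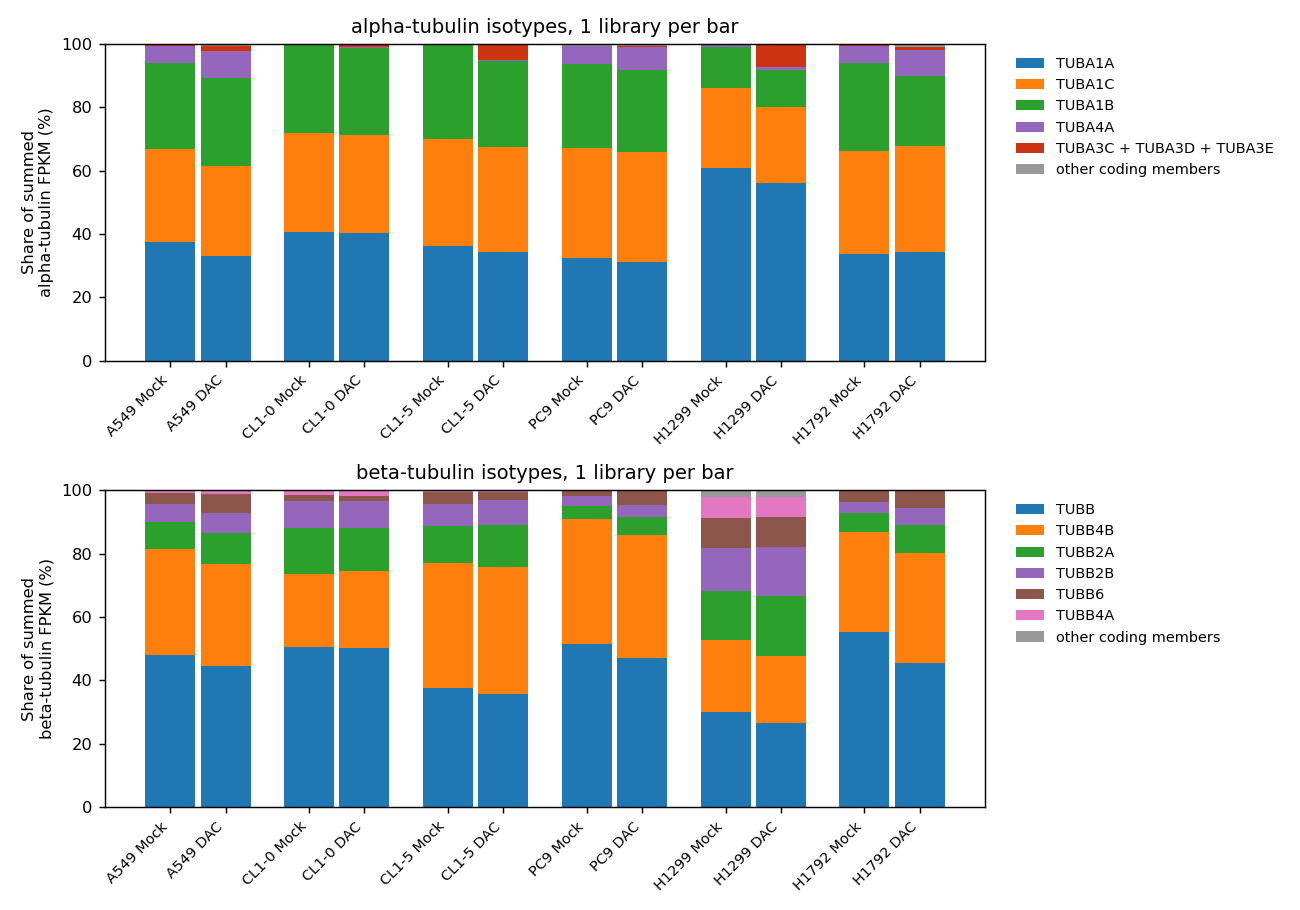
Share of the summed alpha-tubulin (top) and beta-tubulin (bottom) FPKM held by each coding isotype, in percent, with 1 bar per library and Mock beside DAC for each cell line. The leading isotype is the same in Mock and DAC in all 6 lines, and the red band of the TUBA3 genes is widest in H1299 and CL1-5 after DAC.

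Over the 6 lines, isotype shares were compared with an exact two-sided sign-flip permutation test, whose smallest possible p is 0.0313. Of 10 isotypes with a mean share of at least 1%, 0 passed after adjustment and 2 were at an unadjusted p under 0.05. After adjustment over 10 isotypes, even the smallest p falls under 0.05 only where most isotypes reach it together. The adjusted test could therefore hardly call a single isotype, and no conclusion is drawn from 0 passing. TUBB held 45.4% ± 9.71 (SD, n = 6) in Mock and 41.6% ± 8.87 after DAC, a mean difference of -3.85 points ± 3.29, lower in 6 of 6 lines (exact p = 0.0313, adjusted p = 0.156). TUBB2B held 6.85% ± 3.88 (SD, n = 6) and 7.86% ± 4.07, a difference of 1.01 points ± 0.76, higher in 6 of 6 lines (exact p = 0.0313, adjusted p = 0.156). TUBB2A, which shares 31.2% of its stretches of 50 bases with TUBB2B, differed by 1.65 points and TUBA4A by 1.21 points, each higher in 5 of 6 lines (exact p = 0.0625, adjusted p = 0.156). TUBA1A differed by -1.98 points and TUBA1B by -1.67 points, each lower in 5 of 6 lines (exact p = 0.0938, adjusted p = 0.156), and without H1792 the TUBA1B difference was -0.83 points. TUBA1C, TUBB4A, TUBB4B and TUBB6 were at exact p of 0.25 or more. Shares within a class add to a fixed sum, so these differences are not independent of each other.

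The pseudogene TUBA3FP was at 0.10 to 1.77 FPKM in Mock and 0.0898 to 4.04 after DAC, highest in H1299 in both, where it went from 244 to 514 reads. TUBB3, a neuronal isotype, was at 0.206 to 1.07 FPKM in Mock and 0.156 to 0.846 after DAC, higher in 2 of 6 lines. TUBB1 was at 0.0400 to 0.392 FPKM in Mock and 0.0494 to 0.328 after DAC, with 3 to 50 reads per library. TUBB4A ranged from 0.264 FPKM in PC9 to 67.7 in H1299 in Mock and from 0.249 to 129 after DAC. Neuron markers summed to 9.46 to 32.8 FPKM in Mock and 10.1 to 42.3 after DAC, higher in 3 of 6 lines. TUBB6, a widely expressed isotype, went from 97.8 to 192 FPKM in H1299, and from 18.4 to 38.5 in PC9, while it was lower after DAC in CL1-0, CL1-5 and H1792. Over the 5 lines its log2 fold change was 0.27 (SE 0.26, limma adjusted p = 0.665), and it was 0.068 without PC9 and 0.089 without H1299.

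Among the tubulins outside microtubule walls, TUBG1, the main gamma-tubulin, was at 23.0 to 71.0 FPKM in Mock and 23.3 to 73.6 after DAC, lower in 4 of 6 lines and higher in CL1-5 and H1299, as the alpha and beta sums were. TUBG2 was at 11.4 to 30.3 FPKM in Mock and 12.1 to 25.3 after DAC. TUBD1, delta-tubulin, went from 3.13 to 8.12 FPKM in H1299, 2.59-fold, and its log2 difference lay between -0.06 and 0.37 in the other lines. TUBE1, epsilon-tubulin, had the lowest log2 fold change of the members, -0.31 (SE 0.17, limma adjusted p = 0.480), and was lower after DAC in A549, CL1-5, H1299 and H1792. In H1299 it went from 5.63 to 3.37 FPKM, while the other members with more than 3 reads in H1299 were higher there after DAC. Over the 22 members tested the median log2 fold change was 0.19, with 14 above 0, against 0.07 over all genes tested. Without H1299 the median was -0.06, with 11 of 23 above 0, so the sign of the median rested on that line. It was 0.32 without A549, with 21 of 22 above 0, 0.11 without CL1-5, and 0.31 after rescaling to TPM, with 18 above 0.

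Genes that fold, nucleate, modify or bind tubulin showed smaller differences than the TUBA3 genes, and the limma fit called 0 of them. Of the gamma-tubulin ring complex 10 of 10 genes were tested, with a median log2 fold change of -0.09, from -0.47 for MZT2B to 0.18 for TUBGCP4. The folding cofactors, which assemble the dimer, had a median of -0.15 over 6 genes, from -0.58 for ARL2, their regulatory GTPase, to 0.08 for TBCEL. The prefoldin and CCT chaperonin genes, which fold new tubulin, had a median of -0.12 over 14 genes, with 1 above 0, from -0.44 for PFDN2 to 0.02 for CCT2. The tubulin modifying enzymes had a median of -0.06 over 19 genes. Their lowest was TTLL1, a subunit of a polyglutamylase, at -1.19 (SE 0.17, limma adjusted p = 0.0821), and their highest TTLL3, a glycylase, at 0.35. Proteins that bind or destabilise microtubules had a median of -0.02 over 17 genes, from -0.35 for STMN1, which sequesters dimers, to 0.43 for MAP1A. At an unadjusted p under 0.05 the folding cofactors had 1 gene lower and the modifying enzymes 2, with 0 higher in any of these lists, against 4.4% of all genes lower and 8.07% higher.

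Open chromatin was compared at the starts of the same genes. The file names of the libraries labelled CL1-5 and PC9 exchange these lines. Of 107 genes whose RNA was present in PC9 cells but silent in CL1-5 cells, 92.5% had a Mock promoter peak in the library labelled CL1-5 and 56.1% in that labelled PC9. Of 50 genes with the reverse pattern, 40% and 58% had one, so both libraries go against their labels. They are named here by their labels, and A549 and H1299 are given first.

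Of 23 members with an annotated start, 17 had a peak within 3000 bp of a start in A549 Mock and 18 after DAC, and 17 and 19 in H1299. Numbers in the library labelled CL1-5 were 21 and 19, and 19 and 21 in that labelled PC9. Among members without a peak in Mock, 2 of 6 had one after DAC in A549, against 18.8% of genes, and 3 of 6 in H1299, against 16.3%. The counts were 1 of 2 for the label CL1-5, against 17%, and 2 of 4 for the label PC9, against 18.9%. Members with a peak in Mock and none after DAC were TUBA3E in A549, TUBB4A in H1299, and TUBA3C, TUBA3D and TUBB1 for the label CL1-5. The share of all genes that lost a peak was not counted. These TUBA3 peaks lay off the start, at -2496 bp for TUBA3E, -1739 bp for TUBA3C and 1105 bp for TUBA3D. With peaks at a q-value under 0.01, TUBA3D alone gained one in H1299, 1 member in place of 3. For the label PC9, TUBA3D, TUBA3E, TUBA8 and TUBB1 gained one, 4 members in place of 2. The number stayed at 2 in A549 and at 1 for the label CL1-5, and the share of all genes that gained one was not counted at that cut. At that q-value the only member to lose one was TUBB4A, for the label CL1-5. The DAC libraries had more peaks in each line, 78199 against 58734 in A549 and 63541 against 45354 in H1299.

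At the TUBA3D window given above, no Mock library had a peak. After DAC a peak overlapped it in A549 at chr2:132233535-132233830, with a 5.07-fold enrichment over background, at the 71.6th percentile of its list. In H1299 a peak at chr2:132232976-132233701 overlapped it, 3.23-fold and at the 57.5th percentile, and in the library labelled PC9 one at chr2:132233470-132233734, 4.75-fold and at the 80.5th percentile. The library labelled CL1-5 had none there.

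At the TUBA3E window no Mock library had a peak either. After DAC the library labelled CL1-5 had one at chr2:130955913-130956225, 3.32-fold and at the 43.0th percentile, and that labelled PC9 one at chr2:130955804-130956246, 3.72-fold and at the 64.3rd percentile. A549 and H1299 had none. No library of either treatment had a peak on the TUBA3C window. In H1299, where the TUBA3 genes stood at 43.6 to 48.7 FPKM after DAC, TUBA3D was thus the only one of the 3 with a peak on its window.

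A peak was absent at some expressed genes too. TUBB, at 163 to 551 FPKM in the 12 mRNA-seq libraries, had no peak within 3000 bp of a start in any of the 8 lists. TUBB8 had none on its RefSeq window, but one within 3000 bp of an annotated start in all 8 lists. In A549 Mock that peak lay on a start and was 5.35-fold. Windows of 12 members, among them TUBA1A, TUBA1B, TUBA4A and TUBG1, carried a peak in all 8 libraries. The peak on the TUBA4A window was 3.52-fold in A549 Mock and 3.23-fold after DAC, 3.89-fold and 3.34-fold in H1299, 3.91-fold and 3.20-fold in the library labelled CL1-5, and 3.37-fold and 2.86-fold in that labelled PC9. It was lower after DAC in all 4 pairs of lists, while its percentile in the H1299 list went from 55.6 to 61.3. The peaks of 5 others of the 12 members, among them TUBA1A and TUBG2, were lower in all 4 pairs too. The share of all peaks that were lower was not counted, so this is no result about tubulin genes. The percentile of the TUBA1A peak went from 69.42 to 75.32 in A549, from 84.4 to 88.14 in H1299 and from 72.59 to 82.85 for the label PC9. For the label CL1-5 it went from 72.05 to 59.18. The TUBA4A window had a peak also in both Mock lists labelled CL1-5 and PC9, although the Mock cells of CL1-5 held TUBA4A at 0.217 FPKM and those of PC9 at 48.0 FPKM. With 4 lines the smallest two-sided p of an exact sign-flip permutation test is 0.125, so no test is given.

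**Figure D4:**
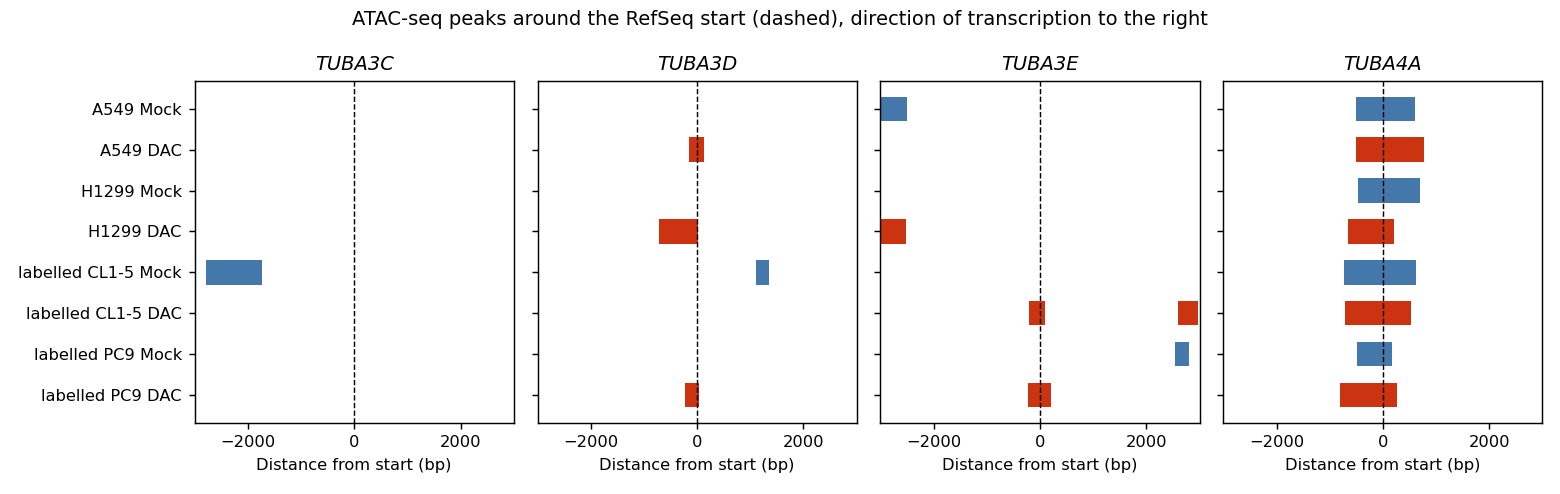
Extent of the ATAC-seq peaks around the RefSeq start of TUBA3C, TUBA3D, TUBA3E and TUBA4A, as distance from the start in bp with transcription to the right, 1 row per library, Mock in blue and DAC in red. Peaks on the start of TUBA3D and TUBA3E occur after DAC and in no Mock library, and TUBA4A has one in all 8 libraries.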

How the data were processed

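mRNA-seq of 12 libraries (6 lines, Mock and DAC) and Omni-ATAC-seq of 8 libraries (4 lines) were used, with groups from the sample labels and 1 library per line and treatment. By the methods of the study, the authors counted mRNA-seq reads per gene on a GENCODE GRCh37 annotation after alignment to hg19 with RSEM and bowtie2 (the processing notes list TopHat2 2.1.1) and deposited FPKM values normalized with DESeq2, beside a mean normalized signal per gene. The authors' log2 fold change, its standard error, test score and p-value columns in that table were not used. For ATAC-seq the authors aligned reads with BWA, called broad peaks per library with MACS2 2.2.5, and deposited for each peak a score, the fold over background and the q-value as −log10, beside the p-value. Columns of per-sample values that match no sample numbered 0.

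The mean signal and the FPKM gave each library's reads, since every value is a multiple of what 1 read is worth, with 100% of values within 0.001 of a whole number. Counting intervals (exact, 95%) and the floor of 3 reads cover counting error only. Genes that averaged 0.1 FPKM or more over the 10 libraries of 5 lines entered a limma fit (3.58.1, R 4.3.3) on log2(FPKM + 0.1), with the line as a block, an intensity trend and Benjamini-Hochberg adjustment over all genes at 0.05, and the fit was tested on simulated data. Mock and DAC libraries of a line share that line, and their deviations correlated at 0.731 to 0.900 within lines against at most 0.115 between lines. The spread is that between lines, and each line's libraries have no replicate. Isotype shares were percentages of the summed FPKM of the coding members of a class.

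Every coding member over 3 reads in any library is named, as are pseudogenes that came up from silence or had the highest mean FPKM, and of each related list the highest and lowest log2 fold change. The members, lists and tests were chosen with earlier results of these data known. Of 24 members, 22 have a RefSeq promoter window. TUBA3FP has no position in the annotation used and was left out of the peak comparison. Genes without a symbol were not members. Of 19 tubulin pseudogenes that the reference names among them, 9 held more than 3 reads in any library, and 1 did so in a library of H1299. Alternatives were other pseudocounts, filters, scalings, voom, no block, the addition of H1792, leaving out each line, and other read floors, peak windows and q-values.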

Additional observations from a re-analysis of the deposited data

Results flagged for a closer look

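The difference between DAC and Mock was compared over the 6 lines for 22 members, and the change in share for 10 isotypes, and in 2 of these 32 sets 1 line lay far from the others. Chance gives about 1 in 20 such sets, so 2 of 32 is near what chance gives. TUBA4B differed by 2.51 on the log2 scale in H1299, with the other lines between -0.33 and 0.51. TUBD1 differed by 1.35 in H1299, with the other lines between -0.06 and 0.37. Both rest on the H1299 libraries, which hold more reads and mostly even read numbers. The part of this in the values was not tested.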

How the results depend on the processing

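Of the limma fit's alternatives, 2 called tubulin genes. With a pseudocount of 0.01 the fit called 1, TUBA3C, with a log2 fold change of 6.18, and voom on the reads called 3. With a pseudocount of 1 the log2 fold changes were 1.95 for TUBA3C, 2.79 for TUBA3D and 2.66 for TUBA3E. The fits with H1792, without a filter or with a mean FPKM of at least 1, with that pseudocount of 1, on TPM and on quantile-normalized values called 0, and the fits without 1 line called 0 each. Without the replicate block, which treats the libraries of a line as unpaired, the fit called 0 as well, so the pairing changed no call of a tubulin gene. Over the fits without 1 line the log2 fold change lay between 3.44 and 4.58 for TUBA3C, 3.71 and 5.35 for TUBA3D, 4.03 and 5.41 for TUBA3E, and 0.27 and 0.97 for TUBA4A. In at least 1 alternative the sign changed for 12 of the 22 members, all but the TUBA3 genes, TUBA3FP, TUBA4A, TUBA4B, TUBB6, TUBB8, TUBD1 and TUBE1, and the lowest adjusted p of these 12 in any fit was 0.466. Among them were TUBA1A (-0.38 to 0.014 without 1 line, and 0.20 after quantile normalization), TUBB2A (-0.065 to 0.39) and TUBG1 (-0.34 to 0.0041). On quantile-normalized values the median of all genes moved by more than 0.1, from 0.07 to -0.04, and on TPM to 0.17.

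The share changes could not pass in fits of 5 lines, where the smallest exact sign-flip p is 0.0625. In the alternatives with 6 lines 0 passed, but passing there needed most isotypes at the smallest p together. The sign held for TUBB (-4.59 to -2.66 points without 1 line) and TUBB2B (0.828 to 1.2), and TUBA1B lay between -2.12 and -0.83. It turned for TUBA1C with shares of reads (0.029 points), for TUBB4A with shares of reads (0.0183) and without H1299 (range -0.0358 to 0.0287), and for TUBB4B without H1792 (-0.317, range -0.317 to 0.636). Shares of reads added TUBB in PC9 to the isotypes that moved by 5 points, 3 against 2. The leading isotype differed between Mock and DAC in 0 of 12 cases throughout. Which isotype led did depend on the scale, since with shares of reads TUBA1C led outside H1299 and TUBB led in CL1-5. Pairs of a gene and a line that came up from silence numbered 7, 2 with 0 reads required in Mock, 6 with at least 20 reads after DAC, and 7 without H1299. Of the 8 gains of a promoter peak, 5 were in A549 and H1299 and so stand without the libraries labelled CL1-5 and PC9. Peaks on the 250-base window, an alternative chosen after seeing the data, gave 8 gains. On that window peaks were lost at TUBA4B in H1299, TUBB2A for the label CL1-5 and TUBB4A for the label PC9. The share of all genes that gained or lost a peak on such a window was not counted. Depth limits the TUBA3 values in Mock, which rest on 0 to 18 reads outside H1299.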
